A study of Mus musculus with 2 samples.

Results

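Genes of MHC antigen presentation were examined in microglia sorted from the spinal cord of mice, the resident macrophages of the central nervous system. They are 10 of the 32285 genes in the deposited count tables, taken by symbol. The 6 class I genes are B2m, H2-K1, H2-D1, Tap1, Tapbp and Nlrc5, and the 4 class II genes are Cd74, H2-Aa, H2-Ab1 and Ciita. All 10 had a row in both tables and at least 20 UMIs in all, so no gene was lost to a filter. A UMI (unique molecular identifier) marks 1 captured RNA molecule, so that PCR copies are counted once.

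There was 1 library for each of 2 genotypes. The mice of the library labelled control (WT in the sample label) were Eif4ebp1 fl/fl by the study's legend. Those of the library labelled 4E-BP1-cKO were Eif4ebp1 fl/fl:TMEM119CreERT2, in which the Tmem119 promoter drives an inducible Cre, so both groups carried the floxed alleles. Mice were 8 to 10 weeks old, and 4-OHT, the ligand of the inducible Cre, was given from postnatal day 4 to 9. The methods give male mice for everything other than protein synthesis labelling and behavior, with no separate statement for these libraries. How many mice were pooled in a library is not stated in the methods. With 1 library per genotype there was no test of genotype. Each value below therefore compares 2 libraries and carries a 95% interval that covers counting error only.

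MHC class I molecules show peptides from inside the cell to CD8+ T cells. The heavy chain, encoded by genes such as H2-K1 and H2-D1, pairs with the light chain β2-microglobulin (B2m). TAP pumps peptides into the endoplasmic reticulum, where tapasin (Tapbp) helps to load them onto this pair. MHC class II molecules, made of an alpha chain (H2-Aa) and a beta chain (H2-Ab1), show peptides from engulfed material to CD4+ T cells, and the invariant chain Cd74 guides them to the endosome. NLRC5 and CIITA are the coactivators of the class I and class II genes, and interferon-gamma induces both sets. Microglia at rest are known for low class II expression, which rises in inflammation and in some activated states.

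The control-labelled library held 1216 barcodes, of which 1147 passed the filters (over 300 detected genes and under 5% mitochondrial UMIs), with 4803562 UMIs and a median of 3053 per cell. The 4E-BP1-cKO-labelled library held 474, of which 445 passed, with 1734332 UMIs and a median of 2776. The libraries shared 0 barcode sequences. At least 3 of 9 microglial markers were found in 91.4% and 85.8% of the kept cells, and at least 3 markers of another cell type in 7 and 3 cells. The targeted gene Eif4ebp1 stood at 19.8 UMIs per 1000000 (CPM) in the control-labelled library and 29.4 in the 4E-BP1-cKO-labelled one (ratio 1.04 to 2.11), which goes against the label. The reads come from the 3′ end of transcripts and need not cover the floxed exon, which the genotyping assay of the methods gives as exon 2, so this gene may check nothing, and directions below hold between labels. Tmem119, whose promoter drives the Cre, was at 433 and 142 CPM.

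The class I chains were the most abundant of the 10 transcripts in both libraries. B2m held 4464 UMIs in the control-labelled library (929 CPM) and 1696 in the 4E-BP1-cKO-labelled library (978 CPM). H2-K1 stood at 371 and 430 CPM, and H2-D1 at 385 and 468 CPM. B2m was found in 69.9% and 66.5% of cells, and at least 1 UMI of the 3 genes in 89.5% and 87.0%. These levels count molecules from 3′ reads and need no correction for transcript length. Reads of H2-K1, H2-D1 and the related H2-Q and H2-T genes can be shared between near-identical copies, so the split between heavy chain genes is uncertain.

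The loading and regulatory genes of class I were far lower. Tapbp, the tapasin gene, stood at 79.1 CPM in the control-labelled library and 71.5 CPM in the 4E-BP1-cKO-labelled one. Tap1, a TAP subunit, held 54 and 28 UMIs, or 11.2 and 16.1 CPM. Nlrc5 held 170 and 39 UMIs, or 35.4 and 22.5 CPM. All members of the class I set were thus measured, but Tap1 and Nlrc5 were seen in only 4.36% to 5.17% and 7.42% to 10.4% of cells.

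**Figure D1:**
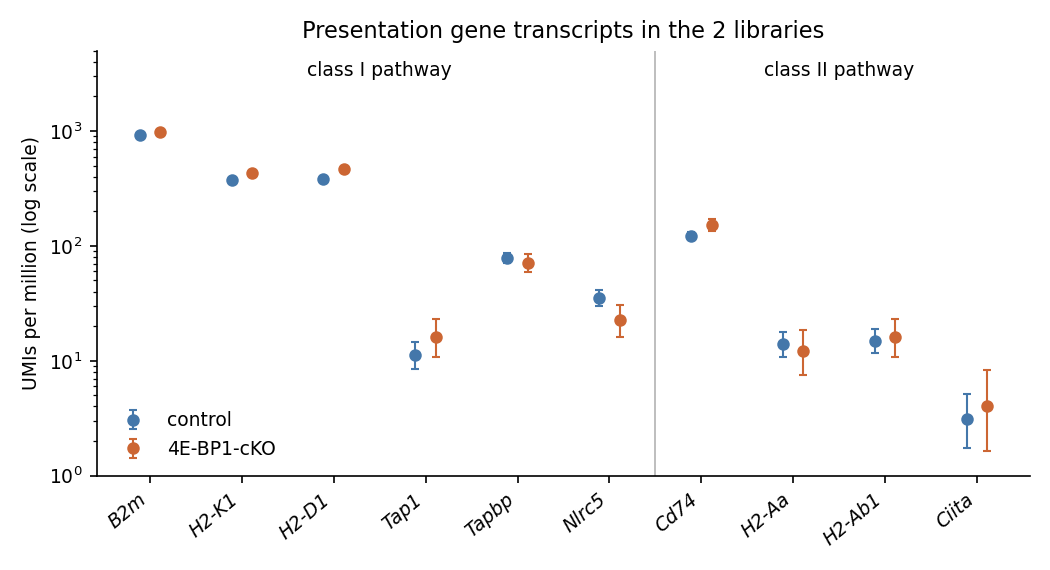
CPM (log scale) of the 10 genes in the control-labelled (blue) and 4E-BP1-cKO-labelled (orange) libraries, with exact Poisson 95% intervals that cover counting error only. B2m, H2-K1 and H2-D1 lie between 371 and 978, Cd74 between 121 and 152, and H2-Aa, H2-Ab1 and Ciita at 16.1 or lower.

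Upstream sequence is shown for 1 gene of each kind of chain, because the light and heavy chain transcripts behaved differently across cell states. RefSeq promoter windows (250 bases before and 50 after the transcript start, GRCm38.p6, the mm10 assembly) were matched for 6 of the 10 genes. Nlrc5, Cd74, H2-Ab1 and Ciita were not matched. The stretches below, read 5′ to 3′ on the gene's strand, lie before the start and outside the annotated gene, and they run from 12 bases before the first motif match to 12 after the last. Capitals mark the letters searched on both strands: the Y box ATTGG, the X2 core TGACG, the core of the interferon-stimulated response element GAANNGAAA and an NF-kappaB site GGGANTCCC.
B2m, light chain, chr2:122147597-122147650, + strand, upstream of the gene at chr2:122147687-122153082: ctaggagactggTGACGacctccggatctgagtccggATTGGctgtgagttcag
H2-D1, class I heavy chain, chr17:35262912-35263057, + strand, upstream of the gene at chr17:35263094-35267497: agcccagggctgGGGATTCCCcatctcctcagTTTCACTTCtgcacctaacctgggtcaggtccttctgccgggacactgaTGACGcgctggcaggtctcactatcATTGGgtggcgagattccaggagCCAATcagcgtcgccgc
H2-Aa, class II alpha chain, chr17:34287855-34287909, - strand, upstream of the gene at chr17:34282744-34287823: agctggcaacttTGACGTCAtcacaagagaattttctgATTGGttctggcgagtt

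All 3 hold an X2 core followed by a Y box. The X2 core began 78 bases before the start in B2m, 101 in H2-D1 and 74 in H2-Aa, and the Y box that follows began 53, 76 and 48 bases before it. In H2-Aa the X2 letters match on both strands and overlap. H2-D1 also holds an NF-kappaB match from base 170 to 162 before the start and an interferon response match, on the opposite strand, from 150 to 142. Both windows of H2-K1, a gene at chr17:33996012-34000619, hold the same 4 kinds of match in the same order as H2-D1. No NF-kappaB or interferon response match by these letters was found in the windows of B2m, Tap1, Tapbp or H2-Aa. Tap1 (chr17:34187556-34197225) holds both an X2 core and a Y box, 86 and 222 bases before its start, and Tapbp (chr17:33919478-33929290) holds 2 Y boxes. Of all 32851 windows, cut to the same 250 bases, 33.8% hold the Y box letters, 17.8% the X2 core, 6.31% the interferon response core and 0.636% the NF-kappaB site. These matches are letters in a window and not measured binding.

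Between the libraries, the heavy chains were slightly higher in the 4E-BP1-cKO-labelled library, the light chain was nearly level, and Nlrc5 was lower. The log2 ratio (4E-BP1-cKO over control, on CPM with a pseudocount of 1) was 0.28 for H2-D1, with a ratio interval of 1.12 to 1.32. It was 0.21 for H2-K1 (1.06 to 1.26) and 0.07 for B2m (0.99 to 1.11). Tap1 stood at 0.49 with an interval of 0.88 to 2.31, and Tapbp at -0.14 with 0.73 to 1.11. Nlrc5 stood at -0.63 with an interval of 0.44 to 0.90.

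Of the 10 members 1, Nlrc5, was past 1.5-fold. Among all 11784 genes with at least 20 UMIs, 15.6% were past 1.5-fold in either direction, 4.32% higher and 11.3% lower in the 4E-BP1-cKO-labelled library, so 1 of 10 is near the background. The median log2 ratio was 0.14 over the 6 class I genes and 0.19 over the 4 class II genes, against -0.05 over all genes with at least 20 UMIs. After each cell was thinned to 872 UMIs, which gives every cell equal weight, H2-K1 stood at -0.03 between the libraries. Thinning also left out 89 and 70 shallower cells, and the cause of the change was not tested.

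The ratio of Nlrc5 (chr8:94434335-94527272) varied over cell clusters, but whether it differs between them was not tested. Over the 7 clusters with at least 20 cells in each library its log2 ratio ran from -1.96 to 0.62 and was above 0 in 1. The ratio intervals of the lowest and the highest of these, clusters 2 and 7, overlap (0.08 to 0.62 and 0.43 to 4.64). In cluster 2, led by Bicdl2, Raver2 and Slc24a1, it held 45 UMIs in the control-labelled library (87.5 CPM) and 5 in the 4E-BP1-cKO-labelled one (21.7 CPM, ratio interval 0.08 to 0.62). In cluster 1 the levels were 22.1 and 19.3 CPM. Nlrc5 counts are small in every cluster, with at most 9 UMIs in a cluster of the 4E-BP1-cKO-labelled library.

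Other genes of class I loading and display, from a list of 19, stayed within 1.5-fold with the exception of Cd1d1, a lipid-presenting molecule with 32 and 6 UMIs that was lower. Of all genes with at least 20 UMIs, 15.6% were past the fold. The list's median log2 ratio was 0.18, and 14 of the 19 were above 0, as were 5169 of all 11784 genes with at least 20 UMIs. Psmb8 and Psmb9, catalytic subunits of the immunoproteasome, stood at 60.8 and 91.1 CPM (log2 ratio 0.58) and at 20.8 and 30.6 CPM (0.53). Psme1, an activator of the proteasome, stood at 99.7 and 136 CPM (0.44), and Pdia3, a chaperone of the loading complex, at 264 and 341 CPM (0.37). Psmb10, another catalytic subunit of the immunoproteasome, was at 0.20 (ratio 0.85 to 1.56). Psme2, another activator of the proteasome, was at 0.18 (0.86 to 1.48), and Tap2, a TAP subunit, at 0.15 (0.84 to 1.47). The intervals of Psmb10, Psme2 and Tap2 thus included equal levels in the libraries. The chaperones Calr and Canx were at -0.05 and 0.03.

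Genes upstream of the presentation genes were counted in the same way. Of 14 interferon receptors and signalling genes, 0 were past 1.5-fold, with a median log2 ratio of -0.01. Of all genes, 15.6% with at least 20 UMIs, 5.06% with 200 to under 1000 and 2.59% with at least 1000 were past it. Of the 14, 7 were above 0, beside 5169 of all 11784 genes with at least 20 UMIs. Those with the most UMIs were Jak1, a receptor kinase (0.08), Irf8, a macrophage transcription factor (-0.03), and Ifngr1, a chain of the interferon-gamma receptor (0.20, ratio 1.04 to 1.27). The other chain, Ifngr2, was at 0.19 (1.02 to 1.28). Irf1, an activator of class I genes, was at 0.18, and Irf2, a repressor of interferon responses, at -0.22. Among 7 factors that bind the X and Y boxes the median was -0.02, and only Rfxank, with 31 and 6 UMIs, was past the fold. Of 10 interferon-stimulated genes with at least 20 UMIs, Ifitm3, Rtp4 and Ifi204 were higher past the fold and Usp18 was lower, with a median of 0.44. The list was mixed, with 6 of the 10 above 0. Bst2 was at 0.49 (ratio 1.12 to 1.77) and Isg15 at -0.39 (0.51 to 1.09). Ifit2 was at -0.25 (0.38 to 1.65) and Ifit3 at -0.24 (0.32 to 1.86). Oasl2, below the limit of 20 UMIs, held 14 and 0. Most of the 10 held few UMIs, and 34.6% of all genes with 20 to under 50 UMIs and 17.6% of those with 50 to under 200 were past the fold. By direction, 9.44% and 4.98% of these 2 sets were higher, and 25.2% and 12.6% were lower. Genes of ex vivo activation also differed between the libraries, with a median of 0.44 over 14 genes. Of these, 5 were higher and 2 lower past the fold. For all genes these shares were 4.32% and 11.3% with at least 20 UMIs, and 0.990% and 1.60% with at least 1000. The median ribosomal share differed too (2.27% and 3.55% of a cell's UMIs). The part of these genes and of this share in the ratios of the presentation genes was not tested.

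**Figure D2:**
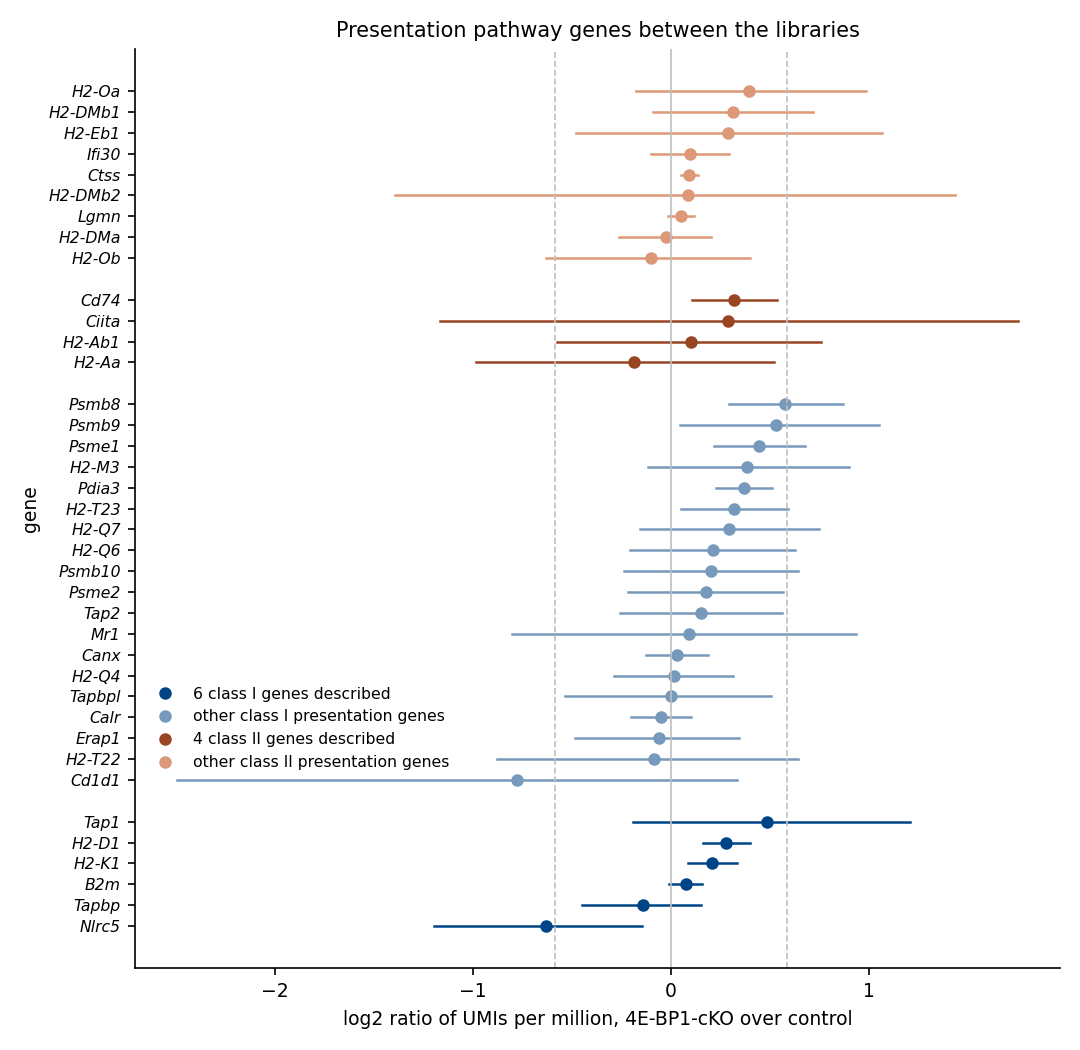
Log2 ratio of CPM, 4E-BP1-cKO-labelled over control-labelled library, for the 10 genes and the other presentation genes with at least 20 UMIs. Points are ratios, lines are exact 95% intervals for counting error only, and dashed lines mark 1.5-fold. Nlrc5 and Cd1d1 lie past the lower dashed line and none of the genes shown lies past the upper one.

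Across cell states, the light chain varied much more than the heavy chains. Cells were clustered without the presentation genes, so none of the presentation genes described shaped the 9 clusters, which are numbered by size. The clusters fell apart by ribosomal share, the part of a cell's UMIs that came from ribosomal protein genes. Clusters 1, 2, 7 and 8 had median shares of 1.19% to 1.36% and are called ribosome-poor here. The other 5 had 4.38% to 18.6%.

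B2m stood between 290 and 440 CPM in the 4 ribosome-poor clusters of the control-labelled library and between 823 and 1785 CPM in the other 5. In the 4E-BP1-cKO-labelled library the ranges were 297 to 628 and 939 to 1694 CPM. The ranges of the cluster groups did not overlap in either library. How many of all genes share this was not counted, so the step was not shown to be particular to B2m. Over clusters and libraries Tmsb4x, Gng5, Actb, Ctss and Tyrobp followed B2m with a Pearson's r from 0.98 to 0.99. The lowest and highest cluster differed by 6.16-fold and 5.71-fold, and cluster 9, led by Ccdc83, Gm1673 and Ankrd42, was the highest in both.

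The heavy chains did not follow this order. H2-K1 ran from 248 CPM in cluster 5 to 622 in cluster 8 in the control-labelled library, and from 222 to 567 in the same 2 clusters of the 4E-BP1-cKO-labelled one. Cluster 8 is ribosome-poor and cluster 5 is not. H2-D1 ran from 268 in cluster 1 to 482 in cluster 2 in the control-labelled library, both ribosome-poor. In the 4E-BP1-cKO-labelled library it was lowest in cluster 5 (198 CPM) and highest in cluster 3 (604 CPM), the cluster led by Enkur, Bcdin3d and Fos.

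**Figure D3:**
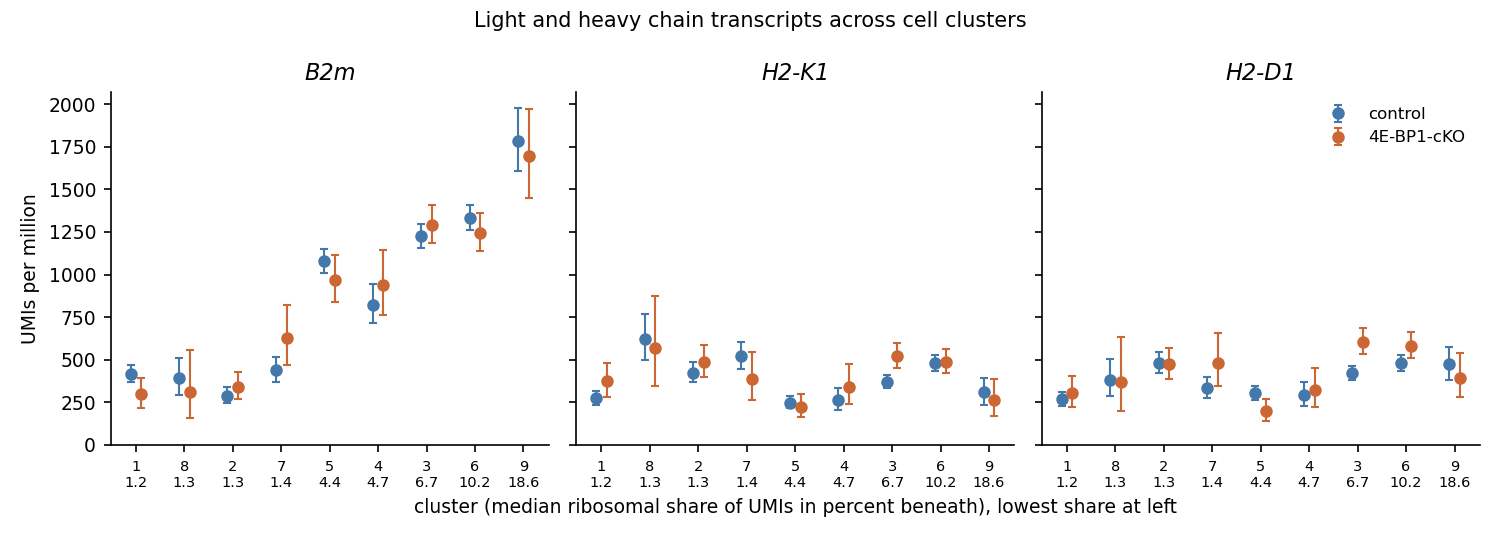
CPM of B2m, H2-K1 and H2-D1 in 9 cell clusters, ordered by median ribosomal share (printed beneath each cluster number), in the control-labelled (blue) and 4E-BP1-cKO-labelled (orange) libraries with exact Poisson 95% intervals. B2m is below 630 in clusters 1, 8, 2 and 7 and at 823 or above in the rest, whereas H2-K1 and H2-D1 stay between 198 and 622 with no step. How many other genes have the step of B2m was not counted.

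Summed over the ribosome-poor clusters, B2m stood at 380 CPM in the control-labelled library and 373 in the 4E-BP1-cKO-labelled one. In the other clusters it stood at 1221 and 1226 CPM. The library ratio had intervals of 0.83 to 1.16 and 0.95 to 1.07 in these sums. Single ribosome-poor clusters went opposite ways, with 416 and 297 CPM in cluster 1 (ratio 0.51 to 0.98) and 440 and 628 CPM in cluster 7 (1.02 to 1.97). The heavy chains summed stood at 755 and 855 CPM in the ribosome-poor clusters and at 757 and 914 CPM in the others (ratio 1.01 to 1.26 and 1.12 to 1.297). The heavy chain level of the control-labelled library was thus nearly equal in the 2 groups of clusters, and that of B2m was not. Between the libraries the heavy chains also went opposite ways in single clusters. They stood at 551 and 420 CPM in cluster 5 (ratio 0.60 to 0.96) and at 790 and 1125 CPM in cluster 3 (1.27 to 1.60). Of the 7 clusters with at least 20 cells in each library, 6 had a heavy chain log2 ratio above 0. The ribosome-poor clusters held 55.3% of control-labelled and 44.0% of 4E-BP1-cKO-labelled cells, with median depths of 2330 and 1984 UMIs against 5608 and 4648 in the others.

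The number of B2m UMIs per heavy chain UMI (H2-K1 and H2-D1 together) sums up this pattern and is formed without dividing by the total of a cell. In the control-labelled library it was 0.77, 0.32, 0.52 and 0.39 in clusters 1, 2, 7 and 8, and 1.55, 1.48, 1.96, 1.39 and 2.29 in clusters 3, 4, 5, 6 and 9. The 4E-BP1-cKO-labelled library gave 0.44, 0.36, 0.72 and 0.33, and then 1.15, 1.41, 2.31, 1.16 and 2.57. The 4 ribosome-poor clusters thus held fewer light than heavy chain UMIs and the other 5 held more, although the interval of cluster 7 in the 4E-BP1-cKO-labelled library, 0.50 to 1.05, includes 1.

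The ratio did not simply rise with the ribosomal share above that step. Cluster 5, at 4.38% ribosomal UMIs, had a higher ratio than cluster 6, at 10.2%, in both libraries. Cluster 5 was also the cluster with the lowest H2-K1. The choice to form this ratio was made after the data were seen.

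**Figure D4:**
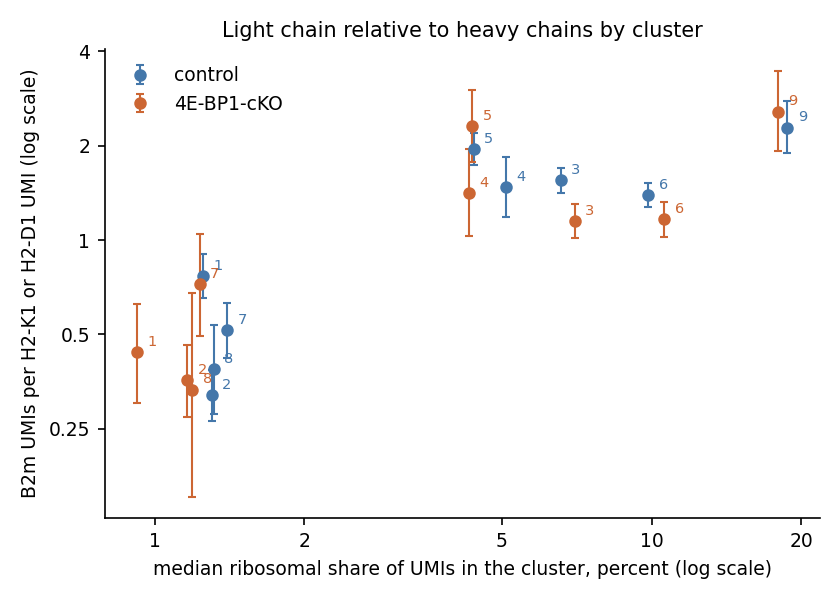
B2m UMIs per H2-K1 or H2-D1 UMI (log scale) against the median ribosomal share of each cluster (log scale), with cluster numbers, exact 95% intervals for counting error, and colors by library as before. The 8 points of clusters 1, 2, 7 and 8 lie below 0.8 and the 10 points of the other clusters lie above 1.1.

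The same contrast was seen without clusters, but in the same cells and by the same ribosomal share, so it is not an independent check. Cells of each library were split into 4 bins of equal size by their own ribosomal share, from bin 1 (lowest) to bin 4 (highest). In the control-labelled library B2m stood at 341, 355, 1015 and 1353 CPM from bin 1 to bin 4, H2-K1 at 363, 456, 326 and 384 CPM, and H2-D1 at 340, 386, 336 and 448 CPM. In the 4E-BP1-cKO-labelled library B2m stood at 286, 517, 1169 and 1381 CPM, H2-K1 at 500.5, 323, 484 and 406 CPM, and H2-D1 at 386, 329, 513 and 541 CPM. B2m was higher in each bin than in the one before it, although the intervals of bins 1 and 2 of the control-labelled library overlap (304 to 381 and 310 to 405 CPM), and the heavy chains had no such order.

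Bin 4 over bin 1 gave a log2 ratio for B2m of 1.98 (ratio 3.52 to 4.48) in the control-labelled library and 2.27 (3.84 to 6.15) in the 4E-BP1-cKO-labelled one. The heavy chains summed gave 0.24 (1.08 to 1.299) and 0.09 (0.92 to 1.25). H2-D1 alone was higher in bin 4 in both libraries (ratio 1.15 to 1.51 and 1.12 to 1.76). The intervals of H2-K1 alone included 1 (0.93 to 1.21 and 0.66 to 1.01). B2m per heavy chain UMI went from 0.49 to 1.63 and from 0.32 to 1.46, which is a log2 difference of 1.75 (Wald interval 1.53 to 1.96) and 2.18 (1.78 to 2.57). Taken against H2-K1 alone, B2m went from 0.94 to 3.52 UMIs per UMI in the control-labelled library, and against H2-D1 alone from 1.003 to 3.02.

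Depth differed between these bins, with a median of 3038 UMIs in bin 1 and 5440 in bin 4 of the control-labelled library. Among cells below the median ribosomal share the ratio of B2m to heavy chains was 0.42 in the shallower cells (median 1717 UMIs) and 0.48 in the deeper ones (3365). Among those above it the ratio was 1.44 (1872 UMIs) and 1.63 (8278). In the 4E-BP1-cKO-labelled library these 4 values were 0.40, 0.58, 1.4 and 1.3. The median depths there were 1012, 2970, 2080 and 7635 UMIs. With cells ordered by UMIs instead, the ratio went from 0.61 in the shallowest of 4 equal groups to 1.59 in the deepest of the control-labelled library. This is a log2 difference of 1.39 (Wald interval 1.11 to 1.68). In the 4E-BP1-cKO-labelled library it went from 0.85 to 1.28 (0.59, 0.07 to 1.11). The part of depth in the result was not tested. Malat1, a nuclear long noncoding RNA, stood at 48091 CPM in bin 1 and 24668 CPM in bin 4 of the control-labelled library, and at 54396 and 28690 CPM in the other. The genes of ex vivo activation summed were higher in bin 4, at 1.94 and 1.98 times their level in bin 1, and the border-associated macrophage list was lower, at 0.45 (0.35 to 0.59) and 0.52 times (0.32 to 0.86). The part of these genes in the result was not tested. The median mitochondrial share was 0.81% and 1.01% in those bins of the control-labelled library and 0.75% and 1.14% in those of the other.

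The remaining class I genes were counted in the same bins. Tapbp was at 65.8 CPM in bin 1 and 88.6 CPM in bin 4 of the control-labelled library (ratio interval 0.995 to 1.84), and at 39.3 and 92.9 CPM in the other (1.22 to 4.999). Nlrc5 was at 35.1 and 32.7 CPM and at 28.6 and 19.9 CPM, and Tap1 at 13.2 and 9.97 CPM and at 17.9 and 11.6 CPM, with intervals that include 1. The 3 immunoproteasome subunits summed stood at 42.8 and 166 CPM (2.78 to 5.57) and at 60.8 and 234 CPM (2.32 to 6.79).

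Correlations over the 16 pairs of cluster and library with at least 20 cells describe the same split. They are given without a test because the points share libraries and depth. Pearson's r of log2 CPM with the logarithm of the median ribosomal share was 0.95 for B2m and 0.04 for the heavy chains summed. H2-K1 and H2-D1 had an r of 0.69 with each other, B2m and H2-K1 one of -0.25, and B2m and H2-D1 one of 0.21. Each heavy chain had an r of 0.65 with Cd74.

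Among 4881 genes with at least 200 UMIs, those most like B2m were Tmsb4x, Gng5, Actb, Ctss and Tyrobp (r from 0.98 to 0.99). Those most like the heavy chains were Alas1, Junb, Sqstm1, Hcar2 and Lmna (r from 0.82 to 0.88). For the 3 class I genes summed they were Eef1b2, Rpl10a, Npm1, Rpl3 and Fth1 (0.92 to 0.94), and for the class II genes summed Hcar2, Eif4a1, Ldha, Tnfsf9 and Arpc1b (0.63 to 0.77). The lists for B2m and for the heavy chains alone were drawn after the data were seen.

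Class II transcripts were far rarer than those of the class I chains B2m, H2-K1 and H2-D1 and were mostly Cd74, which stood above Tapbp, Nlrc5 and Tap1. Cd74, at chr18:60803849-60812652 of GRCm38.p6, held 583 UMIs in the control-labelled library (121 CPM) and 263 in the 4E-BP1-cKO-labelled one (152 CPM). H2-Aa held 67 and 21 UMIs, H2-Ab1 (chr17:34263227-34269418) 72 and 28, and Ciita (chr16:10480014-10531064) 15 and 7. The log2 ratio was 0.32 for Cd74 (ratio 1.08 to 1.45) and -0.19 for H2-Aa (0.50 to 1.44). It was 0.10 for H2-Ab1 (0.67 to 1.69) and 0.29 for Ciita (0.45 to 3.37). Cd74, H2-Aa and H2-Ab1 summed stood at 150 CPM in the control-labelled library and 180 CPM in the 4E-BP1-cKO-labelled one (log2 ratio 0.26, 1.04 to 1.37).

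At least 1 class II UMI was found in 290 of 1147 cells (25.3%) and in 139 of 445 cells (31.2%). After thinning to 872 UMIs the shares were 9.17% and 13.9%. Cd74 alone was found in 21.9% and 28.3% of cells, H2-Aa in 2.62% and 3.37%, and H2-Ab1 in 3.49% and 4.04%. Of genes that microglia should lack, Mbp, a myelin gene, was found in 10.2% and 14.8% of cells, Cldn5, an endothelial gene, in 0.436% and 0%, and Snap25, a neuronal gene, in 0.349% and 0.225%. The shares for H2-Aa and H2-Ab1 lay below that of Mbp and above those of Cldn5 and Snap25 in both libraries, so background and expression could not be told apart from these shares. Empty droplets were not analysed here, so free RNA was not measured.

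A few cells held many of the class II UMIs. In the control-labelled library 173 cells held 1 class II UMI, 60 held 2, and 2 cells held 133 and 47. Those 2 cells carried 180 of the 722 class II UMIs (24.9%), with 36 of the 67 H2-Aa and 29 of the 72 H2-Ab1 UMIs. In the 4E-BP1-cKO-labelled library 1 cell held 22 of 312 (7.05%). All 3 genes together were found in 3 control-labelled and 2 4E-BP1-cKO-labelled cells.

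The 3 cells with over 20 class II UMIs were not alike in their markers. The cell with 133 had all 9 microglial markers, among them 39 Cx3cr1 UMIs, and also 5 markers of border-associated macrophages, with 7 Mrc1, 4 Pf4 and 5 Ms4a7 UMIs, and 8 UMIs of the monocyte gene Ccr2. The cell with 47 had 8 of the microglial markers and none of the border-associated macrophage list. The cell with 22 had none of the microglial markers, 3 Mrc1 UMIs and 1 Pf4 UMI. None of the 3 was called a doublet by Scrublet, and Ciita was at 0 UMIs in each. Over each whole library the 8 genes of the border-associated macrophage list summed to 103 CPM in the control-labelled library and 69.8 CPM in the other, mostly Stab1, with Cd163 at 0 UMIs. Their part in the class II levels outside these cells was not tested.

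**Figure D5:**
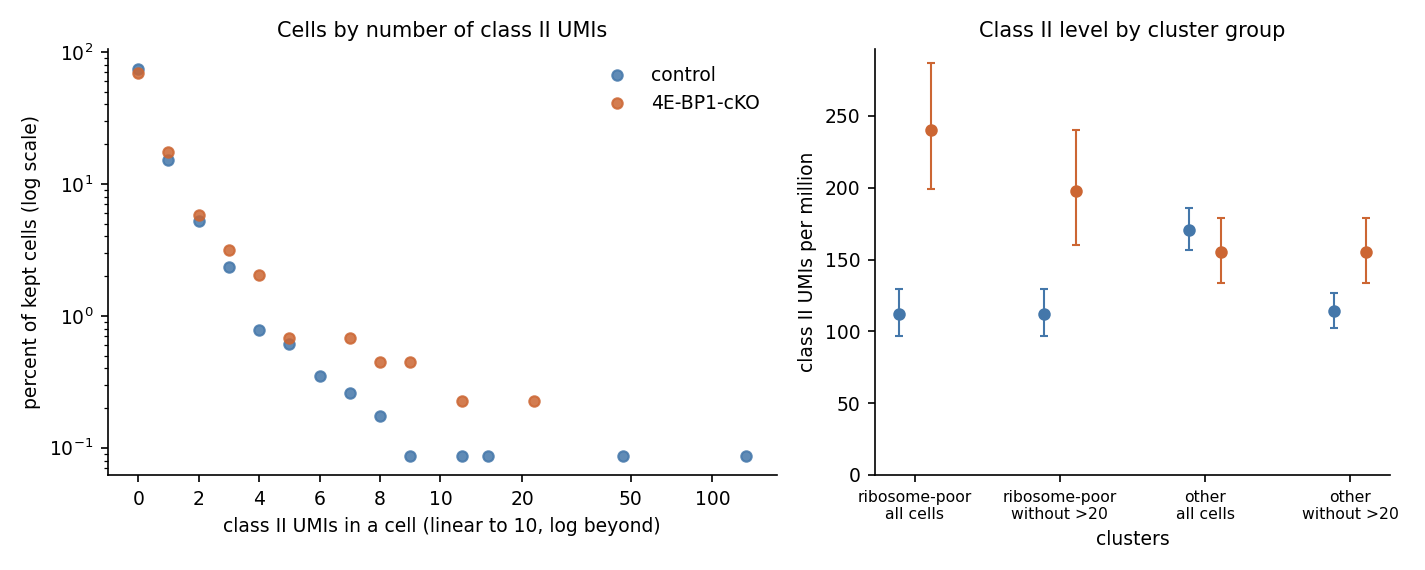
Left, percent of kept cells (log scale) by the number of Cd74, H2-Aa and H2-Ab1 UMIs in the cell (linear to 10, log beyond), for the control-labelled (blue) and 4E-BP1-cKO-labelled (orange) libraries, in which 2 control-labelled cells lie at 47 and 133. Right, class II CPM with exact Poisson 95% intervals in the ribosome-poor and the other clusters, for all cells and without the 3 cells of over 20 class II UMIs. In the ribosome-poor clusters the levels are 112 and 240, or 112 and 197 without those cells.

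Without those 3 cells, 542 and 290 class II UMIs remained and the log2 ratio between the libraries was 0.56. The thinned cells gave 0.83 and the mean over 7 clusters 0.52, so the libraries differed more by each of these 3 measures. Without the 3 cells Cd74 stood at 0.58, H2-Aa at 0.45 and H2-Ab1 at 0.33. Thinned, Cd74 stood at 0.86, H2-Aa at -0.08 and H2-Ab1 at 1.27. The thinned H2-Ab1 value rests on 10 control-labelled and 4 4E-BP1-cKO-labelled cells, with up to 5 UMIs in a cell of the latter. The mean over clusters was 0.57 for Cd74, 0.23 for H2-Aa and -0.77 for H2-Ab1. The lowest H2-Ab1 value in that mean, -3.32, came from cluster 7 with 3 and 0 UMIs.

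The class II difference between the libraries was also taken within the 2 groups of clusters. In the ribosome-poor clusters class II stood at 112 CPM in the control-labelled library (187 UMIs) and 240 CPM in the 4E-BP1-cKO-labelled one (121 UMIs, ratio 1.69 to 2.70). In the other clusters it stood at 170 and 155 CPM (0.77 to 1.08). Without the 3 cells of over 20 class II UMIs the levels were 112 and 197 CPM (1.36 to 2.25) in the ribosome-poor clusters and 114 and 155 CPM (1.13 to 1.63) in the others, so that the intervals of the 2 ratios overlap. Whether the 2 ratios differ was not tested. Among clusters with at least 20 cells in each library, cluster 1, led by Gm35188, Gm43221 and Gm17106, stood at 66.4 CPM (45 UMIs) and 193 CPM (30 UMIs, ratio 1.77 to 4.73). The log2 ratio there was 1.53, against 0.58 and 0.46 in clusters 2 and 7, also ribosome-poor, and 0.99 and 0.67 in clusters 4 and 5, which are not. Cluster 8, with 19 cells in the 4E-BP1-cKO-labelled library, stood at 203 and 823 CPM (28 and 29 UMIs, ratio 2.33 to 7.08), and 1 cell held 22 of the 29. Clusters 6 and 9 went the other way. Cluster 6, led by Cxcl2, Mt2 and Gclm, stood at 265 and 178 CPM (0.51 to 0.88). It holds the control-labelled cell with 133 of its 239 class II UMIs. Cluster 9, also with 19 cells in the 4E-BP1-cKO-labelled library, stood at 348 and 183 CPM (70 and 18 UMIs, 0.29 to 0.89). It holds the control-labelled cell with 47 class II UMIs. Cluster 3 was nearly level, at 169 and 164 CPM. The split into ribosome-poor and other clusters was made after the data were seen.

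Detection of the chains was compared between cells with and without Cd74. In the control-labelled library H2-Aa or H2-Ab1 was found in 4.35% of cells with no Cd74 UMI, 7.89% of those with 1 and 15.2% of those with 2 or more. In the 4E-BP1-cKO-labelled library the shares were 4.08%, 8.45% and 21.8%. Median depth rose alongside, from 2698 to 4362 and 7419 UMIs and from 2174 to 3309 and 5607, and its part was not tested. Class I was modestly higher in cells with class II UMIs. Cells with none stood at 1537 CPM of class I and those with 1 to 20 at 1911 in the control-labelled library, and at 1782 and 1995 in the other. Their median depths were 2638 and 5236 UMIs, and 2040.5 and 4385.5 UMIs. The part of depth in this difference was not tested.

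Of 10 other genes of class II presentation, 9 had at least 20 UMIs and 0 of these were past 1.5-fold between the libraries, with a median log2 ratio of 0.09. Of all genes with at least 20 UMIs 15.6% were past it, and of those with at least 1000, 2.59%. Ctss, the protease that trims the invariant chain, stood at 3354 and 3578 CPM, Lgmn, an endosomal protease, at 1476 and 1530 CPM, and Ifi30, a thiol reductase, at 160.5 and 172 CPM. H2-DMa, a chain of the peptide editor of class II, stood at 123 and 121 CPM, as high as Cd74 in the control-labelled library. H2-Eb1, a second beta chain, held 49 and 22 UMIs, of which 30 and 11 lay in the cells of over 20 class II UMIs, and H2-Eb2 had 0 UMIs in both libraries, which allows up to 3. Of 4 costimulation genes, all 4 lay above 0 with a median of 0.18, beside 5169 of all 11784 genes above 0. Cd86 was by far the most abundant, at 740 and 826 CPM.

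H2-DMa was higher in bin 4 than in bin 1 of ribosomal share in both libraries, and Cd74 was higher in 1 and lower in the other. H2-DMa stood at 41.7 CPM in bin 1 and 179 CPM in bin 4 in the control-labelled library (ratio 3.07 to 6.20), and at 78.6 and 143 CPM in the other (1.12 to 3.04). Cd74 stood at 89.9 and 159 CPM in the first (1.38 to 2.29) and at 214 and 141 CPM in the second (0.47 to 0.93). The 2 control-labelled cells of over 20 class II UMIs had ribosomal shares of 11.4% and 14.2% and lay in bin 4. They held 115 of the 583 Cd74 UMIs of their library, and the bins of Cd74 were not recounted without them. The 3 class II genes summed had a log2 ratio between these bins of 0.99 in the control-labelled library and -0.51 in the 4E-BP1-cKO-labelled one, but without the cells of over 20 class II UMIs these values were 0.11 and -0.52.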

How the data were processed

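Spinal microglia gated as CD45lowCD11BhighCX3CR1high were captured with the 10x 3′ kit after enzymatic dissociation at 37°C. As deposited, the files hold UMI counts that the authors made with Cell Ranger 8.0.1 from reads aligned to mm10, per the submitters' notes. Cell calling had been applied, without further filters or normalization. The study also removed doublets with scDblFinder, which was not run here. Scrublet (scanpy 1.11.5) called 4 and 11 barcodes, against 10.5 and 1.58 expected at 0.8% per 1000, and its calls were left out only as an alternative.

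UMIs were summed over kept cells as CPM. Ratios have exact conditional Poisson intervals, levels exact Poisson intervals and shares Clopper-Pearson intervals. Clusters used SCTransform (sctransform 0.4.2), RPCA, 20 principal components and a resolution of 1.4 in Seurat 5.3.0 (R 4.3.3). Thinning left out 89 and 70 cells.

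The members and gene lists were chosen with earlier results of these data known. Named genes were drawn from the members, the 3 members of a list with the most UMIs and those past 1.5-fold. They were also drawn from the 5 genes most like each class and 3 leading genes per cluster. Not all genes that these rules allow are named, and some genes outside the rules were named after their values were seen. The code was checked on simulated counts. Alternatives were other mitochondrial and gene limits, doublet removal, TMM (edgeR 4.0.16), a total without ribosomal and mitochondrial genes, a pseudocount of 10, thinning, other resolutions and dimensions, and means over clusters. No comparison was paired. Values of some listed genes are not reported.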

Additional observations from a re-analysis of the deposited data

Results flagged for a closer look

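Barcodes that the filters left out also held presentation transcripts. The 69 of the control-labelled library held 161 class I UMIs (1454 CPM, exact Poisson interval 1238 to 1697) and 14 class II UMIs (126 CPM, 69.1 to 212). The 29 of the 4E-BP1-cKO-labelled library held 81 class I UMIs (2276 CPM, 1807 to 2828) and 13 class II UMIs (365 CPM, 195 to 625). The kept cells of the latter stood at 1875 and 180 CPM.

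Opposite directions in the libraries were seen when cells with a high ribosomal share (bin 4) were set against those with a low one (bin 1). The difference between the libraries was not tested. Class II had a log2 ratio of 0.99 in the control-labelled library and -0.51 in the 4E-BP1-cKO-labelled one, and the first fell to 0.11 without the cells of over 20 class II UMIs. Cd74 had 0.82 and -0.60. H2-Aa had 1.25 and -0.72, and Ciita had 0.61 and -2.52, both on few UMIs. In the control-labelled library the cells of over 20 class II UMIs, which lay in bin 4, held 115 of 583 Cd74 UMIs. They also held 36 of 67 H2-Aa UMIs, and neither gene was recounted by bin without them. H2-K1 had 0.080 and -0.30, with ratio intervals of 0.93 to 1.21 and 0.66 to 1.01.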

How the results depend on the processing

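Of 189 alternative values, 157 stayed within the counting error of the main value (counts within 1.5 times), 31 moved beyond it, and 1 whose main interval excluded a ratio of 1 changed sign, H2-K1 at -0.026 after thinning to equal depth. Values whose main interval included 1 also changed sign: Tap1 at -0.083 after thinning, H2-Aa at 0.23 and H2-Ab1 at -0.77 as means over clusters, and H2-Aa at 0.45 without either set of left-out cells. The log2 ratio of class I between the libraries was 0.15, and 0.089 as a mean over clusters. That of H2-D1 was 0.28, and 0.14 as a mean over clusters. That of class II was 0.26, but 0.83 after thinning, 0.52 as a mean over clusters, 0.56 without the cells of over 20 class II UMIs and 0.54 without cells with 3 markers of another type. Cells with a class II UMI were 25.3% and 31.2%, falling to 9.17% and 13.9% after thinning and to 10.2% and 13.7% where 2 UMIs were needed. The log2 span of class I over clusters was 1.38, and 1.18 or 1.62 at resolutions of 0.8 and 2.0, 1.22 with 30 principal components, 1.66 without ribosomal and mitochondrial genes in the total and 1.23 after thinning. That of class II was 2.38, and 1.70 without the cells of over 20 class II UMIs.

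By ribosomal share in the control-labelled library, class I had 1.06, and 0.82 with 2 bins or 1.21 without ribosomal and mitochondrial genes in the total. Class II there had 0.99, and 0.61 with 2 bins, 0.0054 after thinning and 0.11 without the cells of over 20 class II UMIs. B2m to heavy chains in the 4E-BP1-cKO-labelled library had 2.18, and 1.29 with 2 bins or 2.76 after thinning. The share of genes past the fold was 15.6%, and 4.40% with at least 200 UMIs or 4.57% at 2-fold. The alternatives without cells of over 20 class II UMIs or of another type, and those of B2m to heavy chains, were added after the data were seen. No paired analysis was possible because each genotype had 1 library. Depth limited H2-Aa, H2-Ab1, Ciita and Tap1, which were found in under 2% of thinned cells. Mice and library cannot be told apart.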

Other observations

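Over the whole libraries, the markers used for other cell types differed in level. The T and NK cell list held 3 and 14 UMIs, the neutrophil list 5 and 7, and the monocyte list 35 and 3. Endothelial markers stood at 72.0 and 28.8 CPM, with Cldn5 at 52 UMIs in the control-labelled library and 0 in the 4E-BP1-cKO-labelled one, and oligodendrocyte markers at 56.2 and 103 CPM. The dendritic cell list held 116 and 54 UMIs and the B cell list 601 and 210 (125 and 121 CPM), mostly Ighm, which was found in 29.6% and 25.8% of cells. Astrocyte and neuronal lists held 46 and 16, and 26 and 10 UMIs. The 4 endothelial-marker cells of the control-labelled library held 34 class I and 1 class II UMIs.

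The 2 heavy chains were also compared with each other by ribosomal share. H2-K1 UMIs per H2-D1 UMI were 1.07 (0.91 to 1.25) in bin 1 and 0.86 (0.77 to 0.95) in bin 4 of the control-labelled library, with intervals that overlap, and 1.296 (1.001 to 1.68) and 0.75 (0.63 to 0.89) in the other. The split of reads between these near-identical genes is uncertain, and these values were picked after the data were seen.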
